A study of Mus musculus with 7 samples.

Results

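The neurotrophins and their receptors were followed through 6 genes named for this purpose: the ligand genes Bdnf and Ntf3, the receptor tyrosine kinase genes Ntrk2 and Ntrk3, the p75 receptor gene Ngfr and the sortilin gene Sort1. Symbols were matched exactly to probe sets that carry a single gene symbol, and where a gene had several, the one brightest on average was used. This gave 5 members of 22180 genes. Ntf3 matched no such probe set and was not analysed here.

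The values come from 7 one-colour Affymetrix arrays, 4 of cocaine-activated and 3 of shock-activated cells of the medial prefrontal cortex (mPFC). All mice came from a cross of Ribosome TRAP mice to an ArcCre transgenic line, so Cre followed the activity-regulated gene Arc, and all received tamoxifen around the exposure. The exposure was 15 mg/kg cocaine for 2 days, or 20 shocks of 2 s at 0.5 mA for 2 days. Cells active at that time kept a GFP tag on their ribosomes, and RNA was taken from ribosomes precipitated with an anti-GFP antibody. The comparison asks how ribosome-bound RNA differs between cells labelled by the drug and cells labelled by shock. The labels do not give strain, age or sex of the mice or say if animals were pooled, and control precipitates from unlabelled mice were not analysed here. Nothing says that the arrays come from separate animals, so p-values cover the spread among arrays, part of which may be technical.

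Neurotrophins are secreted proteins made as precursors and cleaved to mature dimers. BDNF acts through TrkB, the product of Ntrk2, and neurotrophin-3, the product of Ntf3, acts mainly through TrkC, the product of Ntrk3. Both kinases signal through the Ras and MAP kinase, PI3 kinase and phospholipase C gamma pathways. All neurotrophins and their precursors can also bind p75, and precursors bind p75 together with sortilin, which in addition sorts BDNF inside the cell. In cortical neurons, Bdnf is a classic activity-regulated gene, transcribed from several alternative promoters.

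The promoters of Bdnf are shown first because Npas4, one of the activity-dependent factors that bind them, spanned a wider range of levels on these arrays than Bdnf did. RefSeq (build GRCm38.p6) gave 7 Bdnf windows of 300 bases, from 250 bases before to 50 after a start. They were searched on both strands for the cAMP response element TCACGTCA, the form known from an inducible Bdnf promoter, and for TCGTG, the core bound by bHLH-PAS factors such as Npas4. The first was found in 1 Bdnf window, 38 bases before the start, where 0.4414% of the 32851 windows of all genes held it. The second was found in 3 Bdnf windows and in 16.04% of all windows. Matches of these 2 strings did not overlap each other. They are 2 of 7 strings searched in the same way and were chosen for display after the matches were seen. Of the other 5, the full cAMP response element TGACGTCA (1.79% of all windows) and the AP-1 element TGACTCA (5.202%) were in no member window. The shorter forms CACGTCA (2.012%) and TGACG (20.81%) were each in 1 Bdnf window, at letters that overlap the TCACGTCA match, and the E-box CACGTG (7.15%) was in 1 Ntf3 window. The 2 Bdnf windows with matches before the start are printed below over the 250 bases before the start, 5′ to 3′ on the plus strand, with matches in capitals (CACGA is TCGTG on the other strand).
Bdnf, chr2:109674450-109674699, GRCm38.p6, plus strand: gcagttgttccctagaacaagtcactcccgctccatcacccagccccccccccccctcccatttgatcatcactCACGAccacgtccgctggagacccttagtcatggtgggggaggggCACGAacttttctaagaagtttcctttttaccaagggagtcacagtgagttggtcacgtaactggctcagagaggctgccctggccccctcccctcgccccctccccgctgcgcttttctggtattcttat
Bdnf, chr2:109692186-109692435, GRCm38.p6, plus strand: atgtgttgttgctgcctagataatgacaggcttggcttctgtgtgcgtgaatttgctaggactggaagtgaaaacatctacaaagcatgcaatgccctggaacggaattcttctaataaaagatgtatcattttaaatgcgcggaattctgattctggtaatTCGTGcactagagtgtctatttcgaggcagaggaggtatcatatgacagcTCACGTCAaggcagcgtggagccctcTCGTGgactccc
The windows of Ntrk2 and Ngfr, 1 each, held none of the 7 strings in these letters. Ntrk3 and Sort1 had no window among those searched, so nothing is said of their promoters. The 1 Bdnf probe set does not tell the promoters apart, so each value below is a level over whichever transcripts that probe set covers.

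No member separated the cocaine arrays from the shock arrays. By limma with Benjamini-Hochberg adjustment over all 22180 genes, the 5 members had adjusted p-values between 0.938 and 0.994, and none had an unadjusted p under 0.05. The background was the same at the first threshold, with 0 of 22180 genes (0%) at an adjusted p under 0.05, and 3.10% of genes at an unadjusted p under 0.05 by limma. For 0 of 5 members the 2 groups did not overlap, against 2.37% of all genes. Of the 5, 1 had a higher mean in the cocaine group (Sort1) and 4 a lower one, and their median difference was -0.034. Over all genes 50.9% had a higher and 49.1% a lower mean, and the median difference was 0.0016. Differences are cocaine minus shock throughout, in log2 units.

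**Figure D1:**
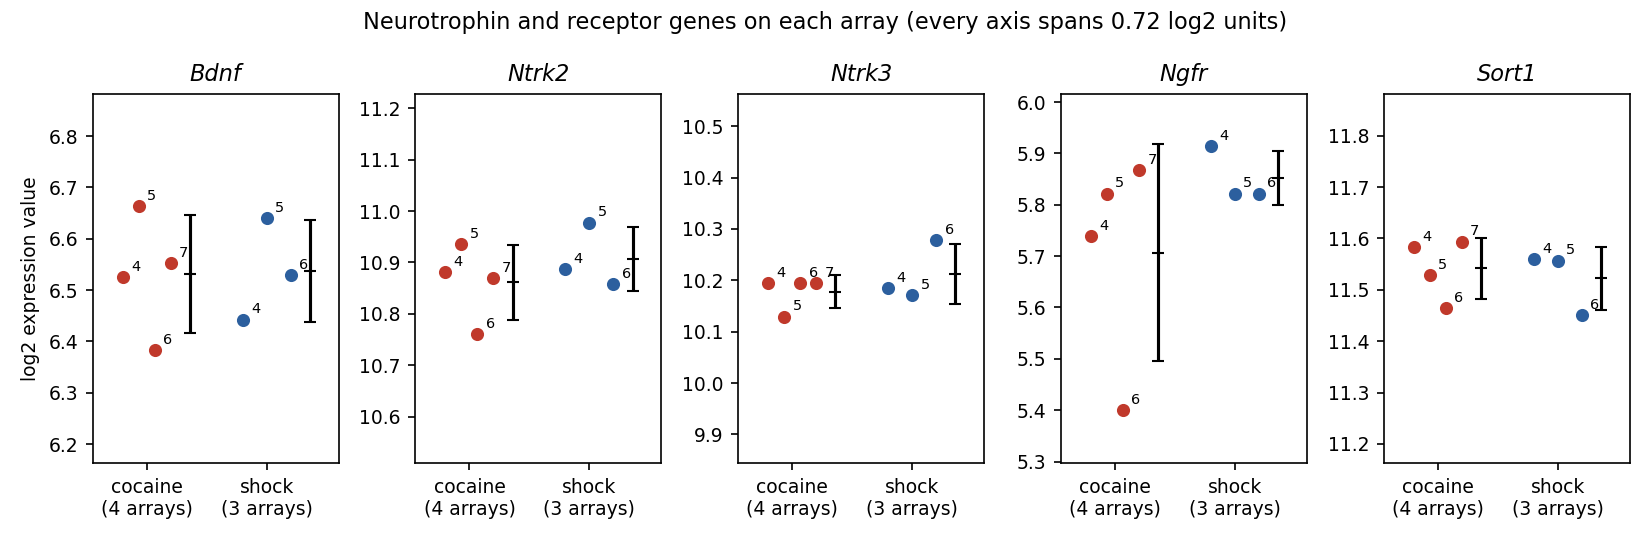
Log2 expression value of each member on each array (vertical axis, every panel spanning the same range), with the array number beside each point. Points are red for the 4 cocaine arrays and blue for the 3 shock arrays, and black bars show the mean and SD of each group. In every panel the 2 groups overlap, and cocaine array 6 is the lowest point for Bdnf, Ntrk2 and Ngfr.

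Bdnf, the ligand (probe set 17374077, Entrez 12064), had 6.53, 6.66, 6.38 and 6.55 on cocaine arrays 4, 5, 6 and 7, against 6.44, 6.64 and 6.53 on shock arrays 4, 5 and 6. Array 5 was the highest of both groups, and the shock values lay inside the range of the cocaine values. The cocaine mean was 6.53 ± 0.12 (SD, n = 4) and the shock mean 6.54 ± 0.10 (SD, n = 3). The difference was -0.0061 (SE 0.077, limma, adjusted p = 0.994), and an exact two-sided permutation over the 35 splits of the arrays gave p = 0.914, where 0.0286 is the smallest possible. The 95% interval of the difference ran from -0.19 to 0.18, that is from 0.877-fold to 1.13-fold of the shock level. Of the genes above background, 8.55% had a smaller absolute difference and 72.8% a smaller SD within the groups (pooled over both). The sign of the Bdnf difference turned with small changes to the data: it was 0.043 with cocaine array 6 left out, 0.045 with shock array 5 left out and 0.0080 after quantile normalization.

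Ntrk2 encodes TrkB, the receptor of BDNF (probe set 17287901). It had 10.88, 10.94, 10.76 and 10.87 on cocaine arrays 4 to 7 and 10.89, 10.98 and 10.86 on shock arrays 4 to 6. Cocaine array 6 was the lowest and shock array 5 the highest, with the other 5 arrays between 10.86 and 10.94. The cocaine mean was 10.86 ± 0.07 (SD, n = 4) and the shock mean 10.91 ± 0.06 (SD, n = 3). The difference of -0.046 (SE 0.053, limma, adjusted p = 0.938; exact permutation p = 0.429) had a 95% interval of 0.887-fold to 1.06-fold. Leaving out cocaine array 6 gave -0.012 and leaving out shock array 5 gave -0.011, and the difference stayed below 0 without each array in turn. Ntrk2 makes a full-length kinase in neurons and a truncated receptor that astrocytes express strongly, and its 1 probe set gives 1 value for both.

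Markers of astrocytes differed in mean between the groups as well. All 11 astrocyte markers had a lower mean in the cocaine group, with a median difference of -0.16. Without cocaine array 7 this held for 9 of 11 (median -0.12), and without cocaine array 4 for 10 of 11. The mean level of the markers per array was 8.50 to 8.79 in the cocaine group against 8.68 to 8.84 in the shock group. None of the 11 was under the background level, and 1 had an unadjusted p under 0.05 by limma (lower; 1.57% of all genes). Gfap differed by -0.16, Aqp4 by -0.18 and Gja1 by -0.23, the last with a range of -0.36 (shock array 4 left out) to -0.13 (shock array 6 left out). Their part in the Ntrk2 difference was not tested. In bulk precipitates like these, fewer cells of a type and less RNA per cell cannot be told apart. Without control precipitates, RNA of tagged ribosomes cannot be told from RNA carried over from untagged cells either. This holds for all cell type markers below as well.

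Ntrk3 encodes TrkC, the receptor of neurotrophin-3 (probe set 17492244). It had 10.19, 10.13, 10.19 and 10.19 on the cocaine arrays and 10.18, 10.17 and 10.28 on the shock arrays. Cocaine arrays 4, 6 and 7 held an identical value, and shock array 6 was the highest. The cocaine mean was 10.18 ± 0.03 (SD, n = 4) and the shock mean 10.21 ± 0.06 (SD, n = 3), a difference of -0.034 (SE 0.040, limma, adjusted p = 0.938; exact permutation p = 0.571). The 95% interval was 0.914-fold to 1.04-fold, the narrowest of the 5 members. Without shock array 6 the difference was -0.00035. Like Ntrk2, the gene makes kinase-containing and truncated forms that the array value does not separate.

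Ngfr encodes p75, the shared low-affinity receptor (probe set 17268210). It had 5.74, 5.82, 5.40 and 5.87 on the cocaine arrays and 5.91, 5.82 and 5.82 on the shock arrays. Cocaine array 6 lay apart below all others, and cocaine array 5 and shock arrays 5 and 6 held an identical value. These levels were close to the background level of 5.46, the 95th percentile of the means of 1394 odorant and vomeronasal receptor genes. The value on cocaine array 6 was under that level and those on all other arrays were above it. The cocaine mean was 5.71 ± 0.21 (SD, n = 4) and the shock mean 5.85 ± 0.05 (SD, n = 3). The difference of -0.15 was the largest in size of the 5 members (SE 0.11, limma, adjusted p = 0.938; exact permutation p = 0.4). Without cocaine array 6 it was -0.043, and without each other array it lay between -0.20 and -0.11. The 95% interval, 0.750-fold to 1.09-fold, was the widest of the 5.

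In the forebrain p75 is best known from cholinergic neurons of the basal forebrain, whose axons reach the cortex. Their markers were near the floor here, with all 5 measured (Chat, Slc5a7, Slc18a3, Lhx8 and Gbx1) under the background level on average. The mean marker level was 4.54 to 4.58 in the cocaine group and 4.67 to 4.79 in the shock group. Vascular markers differed too. All 10 mural cell and fibroblast markers and all 10 endothelial markers had a lower mean in the cocaine group, with median differences of -0.27 and -0.24, and the groups did not overlap for 2 of the endothelial markers (1.11% of all genes in this direction). With shock array 6 left out the mural median was -0.12, still with all 10 lower. The mean mural level per array was 6.53 to 6.79 in the cocaine group against 6.71 to 7.28 in the shock group, and the endothelial level was 6.33 to 6.66 in the cocaine group against 6.73 to 6.85 in the shock group, without overlap. Among their members Cnn1, Lum and Ly6c1 were under the background level. The part of these cells in the Ngfr values was not tested.

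Sort1 encodes sortilin, the sorting receptor that binds BDNF and, with p75, neurotrophin precursors (probe set 17401673). It had 11.58, 11.53, 11.46 and 11.59 on the cocaine arrays and 11.56, 11.56 and 11.45 on the shock arrays. Array 6 was the lowest in both groups. The cocaine mean was 11.54 ± 0.06 (SD, n = 4) and the shock mean 11.52 ± 0.06 (SD, n = 3). The difference of 0.020 (SE 0.048, limma, adjusted p = 0.966; exact permutation p = 0.629) had a 95% interval of 0.936-fold to 1.098-fold and became -0.016 without shock array 6. A further Sort1 probe set (17409277) had values of 5.57 to 5.78 in the cocaine group and 5.53 to 5.69 in the shock group, close to the background level. Its difference was 0.036, of the same sign as that of the brighter probe set.

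**Figure D2:**
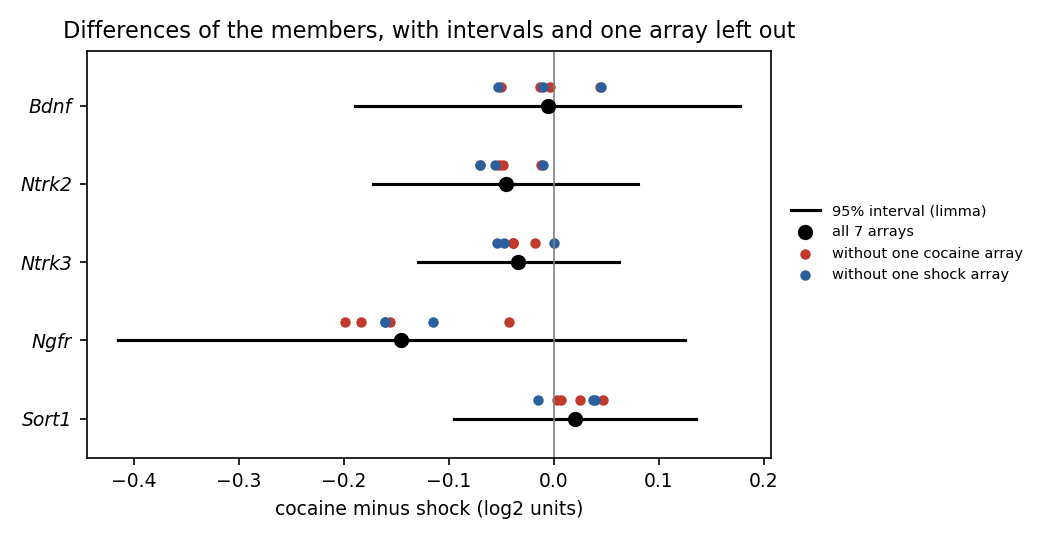
Difference between cocaine and shock arrays for each member on the log2 scale (horizontal axis). Black points are the differences over all 7 arrays and black lines their 95% limma intervals, and the small points above each line leave out 1 cocaine array (red) or 1 shock array (blue). All 5 intervals cross 0, and the Ngfr difference is nearest to 0, at -0.043, without cocaine array 6.

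Across the 7 arrays the members did not vary as one. Bdnf and Ntrk2, ligand and receptor, had the highest correlation of the 10 pairs (Pearson r = 0.86, Spearman rho = 0.64, n = 7), and r was 0.73 without cocaine array 6 and 0.69 without cocaine arrays 5 and 6, the arrays with the most extreme Bdnf values. Ntrk2 and Ngfr had r = 0.73, which was -0.082 without cocaine array 6. Ntrk3 correlated negatively with the other 4 members (r between -0.50 and -0.032). By rank, the inverse pair of Ntrk2 and Ntrk3 had the largest correlation in size of the 10 (Spearman rho = -0.85, Pearson r = -0.42). Dropping cocaine array 6 moved its r to -0.67, and dropping shock array 5 too moved it to -0.88. The ranks of Ntrk3 include the tie of cocaine arrays 4, 6 and 7. Points in these comparisons share an array and its normalization. Cocaine array 6 held the lowest value for 3 of 5 members, and also for 23.2% of the 13769 genes above background, against 9.56% to 15.5% on each other array. It stood apart over all genes, with a mean correlation of 0.993 with the others, which correlated at 0.996 to 0.997 among themselves.

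The relation of Bdnf to other activity-regulated genes was uneven. Npas4, which drives Bdnf transcription after activity, had 9.72, 9.30, 8.98 and 9.56 on the cocaine arrays and 7.93, 9.11 and 6.68 on the shock arrays. Shock array 6, with the lowest Npas4, had a Bdnf value that deviated by -0.0044 from the mean over all arrays. From the lowest to the highest array Npas4 spanned 3.04 and Bdnf 0.28. Bdnf, at 6.38 to 6.66, lay nearer to the background level of 5.46 than Npas4 did on each array. Whether this narrowed the span of Bdnf was not tested. The deviation of Bdnf from its mean over the arrays ran from -0.15 to 0.13, and that of Npas4 from -2.08 to 0.97. Arc, the gene behind the labelling, was highest on array 5 in both groups, as was Bdnf. Pearson's r with Bdnf over the 7 arrays was 0.74 for Arc, 0.55 for Fos and 0.26 for Npas4 (Spearman rho 0.68, 0.57 and 0.32), and 0.70, 0.58 and 0.36 without cocaine arrays 5 and 6. In the same order r was 0.60, 0.43 and 0.16 for Ntrk2, -0.75, -0.77 and -0.73 for Ntrk3, and 0.58, 0.62 and 0.65 for Sort1. For Ngfr r was 0.13, -0.031 and -0.19. Without cocaine array 6 and shock array 5 the Ntrk2 values were 0.66, 0.56 and 0.43. Without cocaine array 5 and shock array 6 those of Ntrk3 were -0.26, -0.071 and 0.35. Without cocaine array 6 and shock array 6 those of Sort1 were -0.24, -0.031 and 0.33. The group differences were 0.67 for Arc, 1.18 for Fos and 1.49 for Npas4, all at adjusted p = 0.938 by limma, against -0.0061 for Bdnf. Their size rested on single shock arrays: leaving out shock array 6 gave 0.36 for Arc, 0.64 for Fos and 0.87 for Npas4, and leaving out shock array 5 gave 1.20, 1.90 and 2.09 in the same order.

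**Figure D3:**
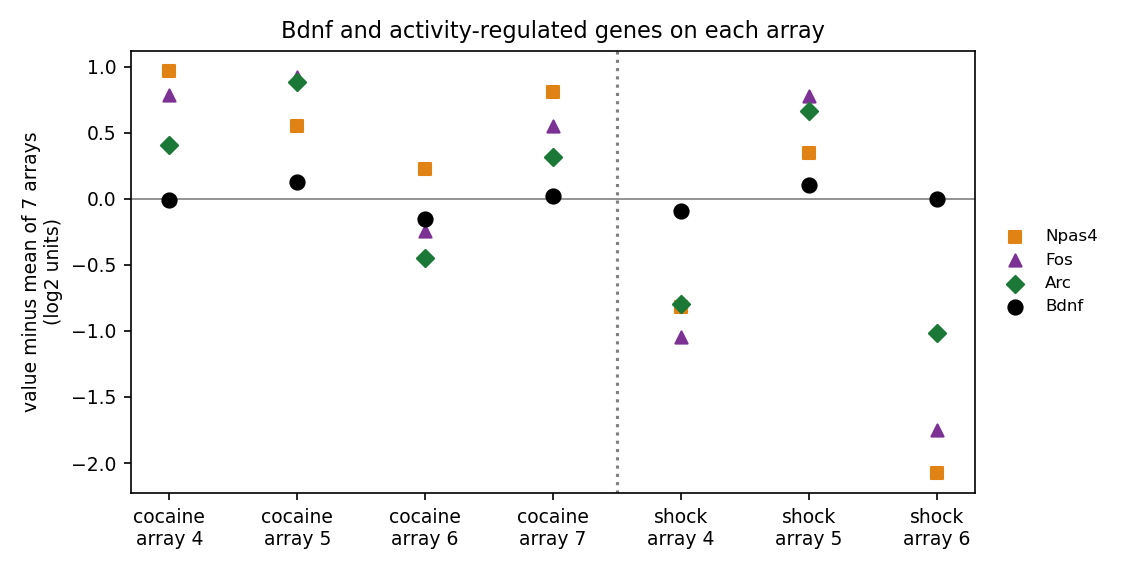
Value of Bdnf (black circles), Npas4, Fos and Arc on each array minus the mean of that gene over the 7 arrays, in log2 units, with the cocaine arrays left of the dotted line and the shock arrays right of it. Bdnf stays between -0.15 and 0.13 on all arrays, while Npas4 reaches -2.08 on shock array 6.

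For each member the 3 genes of most similar pattern over the 7 arrays were taken from 4092 genes (4091 for Ngfr) above background with an SD of at least 0.1, as a description. Zdbf2, Cnnm4 and Tsc22d2 were nearest to Bdnf (r = 0.995, 0.987 and 0.983), and 42 genes had an r of at least 0.9 with it. Zdbf2 had 7.75, 8.02, 7.56 and 7.84 on the cocaine arrays and 7.63, 7.98 and 7.79 on the shock arrays, in the same order of arrays as Bdnf. Nearest to Ntrk2 were Zim1, Tnrc6a and Ifna4 (r = 0.992, 0.987 and 0.984). Ntrk3 was nearest to Nxph2, Smim22 and Zfp729b (r = 0.977, 0.973 and 0.964), all of which, like Ntrk3, were highest on shock array 6. Ngfr was nearest to Ppil6, Lrrc29 and Map2k3os (r = 0.990, 0.989 and 0.986), and 152 genes had an r of at least 0.9 with it. These 3 genes, like Ngfr, were lowest on cocaine array 6, as were the 3 nearest to Bdnf and the 3 nearest to Ntrk2. Sort1 was nearest to Mmab, Oscar and Eif4e2 (r = 0.988, 0.986 and 0.981).

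A further 5 ligands and receptors of the family were analysed. Ntf5, the gene of neurotrophin-4, the other TrkB ligand, had values of 5.17 to 5.32 on the cocaine arrays and 4.96 to 5.19 on the shock arrays. Only shock array 6 reached into the cocaine range, and all values were under the background level. The Ntf5 difference of 0.18 (SE 0.069) had an unadjusted p = 0.0362 by limma, where 1.53% of all genes had a higher mean at an unadjusted p under 0.05, and an adjusted p = 0.938 (exact permutation p = 0.114). Relatives of sortilin differed by 0.052 (Sorcs1), -0.028 (Sorcs2), 0.067 (Sorcs3) and 0.067 (Sorl1), at unadjusted p-values of 0.208 to 0.833 by limma. With shock array 4 left out Sorcs1, Sorcs3 and Sorl1 differed by 0.022, 0.022 and -0.0073, and Sorcs2 turned to 0.062 when cocaine array 6 was left out and to 0.087 when shock array 5 was.

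Genes that process and release neurotrophins, among them precursor-cleaving convertases, matrix proteases and granule proteins, were measured in 20 of 22 cases. Of these 7 had a higher and 13 a lower mean in the cocaine group (median difference -0.010), and 0 had an unadjusted p under 0.05 by limma. The granule protein gene Scg3 differed by -0.11 (unadjusted p = 0.213, the smallest of the list). Cadps2, whose product promotes BDNF release, differed by -0.060, the convertase gene Pcsk6 by 0.053 and the matrix protease gene Mmp9 by 0.084. With shock array 6 left out Cadps2 was at -0.0036 and Mmp9 at -0.0011. Scg3 was at -0.060 when cocaine array 4 was left out and Pcsk6 at 0.029 when cocaine array 5 was. The number of higher means in the list ran from 5 to 10 of 20 with 1 array left out.

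Downstream of the Trk receptors, 31 of 40 listed adaptors and effectors were measured. Of these 12 had a higher and 19 a lower mean (median -0.0073), and 0 had an unadjusted p under 0.05 by limma. The MAP kinase kinase gene Map2k1 differed by 0.075, the Raf kinase gene Braf by -0.066, the insulin receptor substrate gene Irs1 by -0.11 and the adaptor gene Grb2 by 0.039. Irs1 was at -0.015 when shock array 5 was left out and at -0.059 when cocaine array 6 was. With shock array 4 left out Map2k1 was at 0.034, Braf at -0.036 and Irs1 at -0.17. The number of higher means ran from 9 to 17 of 31 with 1 array left out, the highest when it was cocaine array 6. Among p75 partners and effectors, 22 of 26 were measured, 14 with a higher and 8 with a lower mean (median 0.017), and again 0 had an unadjusted p under 0.05 by limma. The sheddase gene Adam10 had the smallest p of that list (difference -0.12, SE 0.051, unadjusted p = 0.0511, adjusted p = 0.938 by limma). Adam10 had 9.28, 9.33, 9.21 and 9.27 on the cocaine arrays and 9.42, 9.30 and 9.46 on the shock arrays, so that shock array 5 alone reached into the cocaine range. Tnfrsf19, a receptor of the p75 family, differed by -0.18, the adaptor kinase gene Irak1 by -0.13 (-0.043 without cocaine array 6) and the GTPase gene Rhoa by -0.053 (-0.027 without shock array 4).

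Regulators that act on Bdnf transcription were measured in 22 of 24 cases, 11 with a higher and 11 with a lower mean (median -0.0026). Npas4 was the 1 of them with an unadjusted p under 0.05 by limma, where 1.53% of all genes were higher at this threshold. Its unadjusted p was 0.0276 by limma, and the exact permutation gave p = 0.0571. The other 21 lay between -0.061 and 0.069, with Arnt2, a partner of Npas4, at -0.061 and the serum response factor gene Srf at 0.069. Leaving out shock array 5 gave 0.0040 for Arnt2 and 0.12 for Srf, leaving out shock array 6 gave -0.13 for Arnt2, and leaving out shock array 4 gave 0.035 for Srf. The number of higher means ran from 6 (shock array 4 left out) to 14 (cocaine array 6 left out) of 22. The CREB gene Creb1 differed by 0.021, the CREB coactivator gene Crtc1 by -0.054 and the MADS box factor gene Mef2c by 0.0067 (Creb1 and Mef2c chosen after their values were seen).

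Genes listed as induced by BDNF, or by the activity that releases it, were measured in 26 of 26 cases, 22 with a higher and 4 with a lower mean in the cocaine group (median 0.086, where 50.9% of all genes were higher). Many of them, such as Fos and Arc, are immediate early genes that neuronal activity induces without BDNF as well. The list was drawn up with earlier results of these data known, so its count is no test against the 50.9%. Rgs4, a regulator of G protein signalling, was the 1 gene of the list with an unadjusted p under 0.05 by limma (higher, 1.53% of all genes). It was also the 1 whose groups did not overlap, against 1.25% of all genes with no overlap in this direction. It had 10.85, 10.94, 10.93 and 10.87 on the cocaine arrays and 10.79, 10.80 and 10.75 on the shock arrays, a difference of 0.11 (SE 0.037, limma, unadjusted p = 0.0178, adjusted p = 0.938). Nptx2, a secreted pentraxin of synapses, differed by 0.20, and by 0.31 without shock array 5. The count with a higher mean was 23 when either cocaine array 6 or shock array 5 was left out, 16 when cocaine array 5 was, 18 when shock array 4 was and 19 when shock array 6 was. Npy, a neuropeptide gene that BDNF raises in cortical interneurons, was the lowest of the list at -0.15 (chosen after its value was seen).

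**Figure D4:**
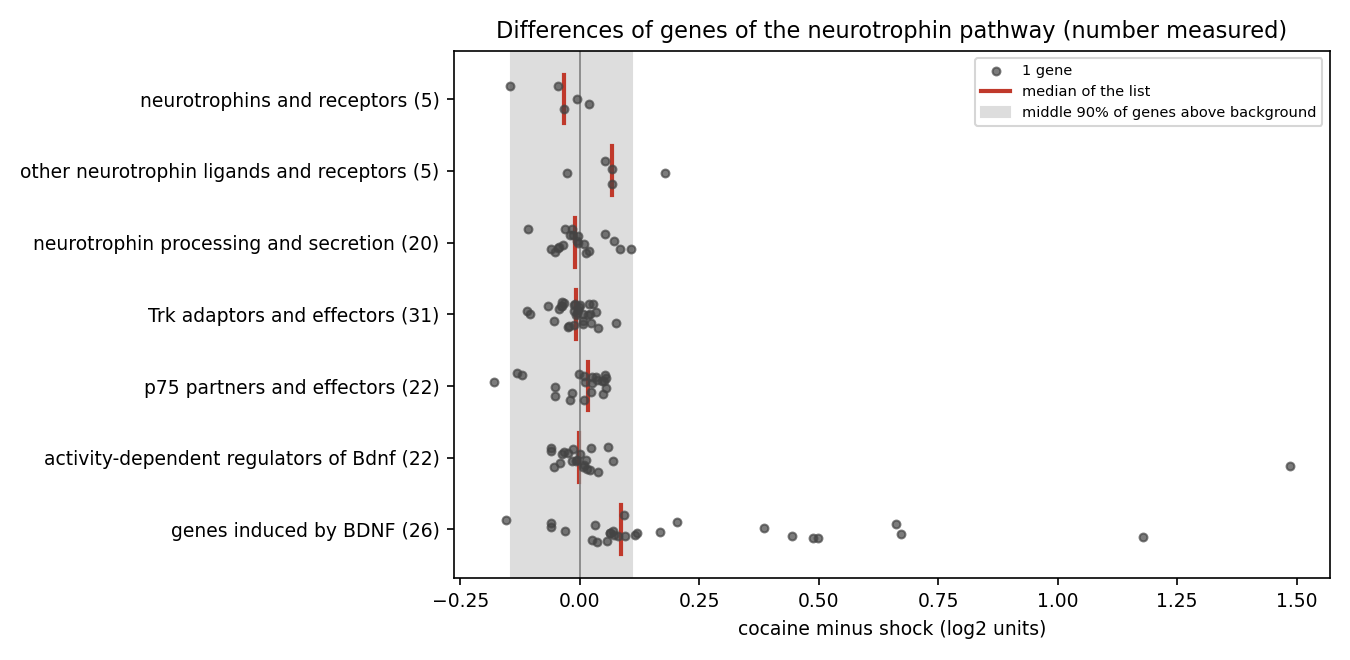
Differences between cocaine and shock arrays on the log2 scale (horizontal axis) of the genes of each list, with the number measured in brackets, the list median in red and the middle 90% of genes above background (-0.15 to 0.11) in grey. The points farthest above the grey band are Npas4 at 1.49 and, among genes induced by BDNF, Fos at 1.18, while the members run from -0.15 (Ngfr) to 0.020 (Sort1).

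Markers of other cell types were read over the same arrays. Excitatory neuron markers had a higher mean in 4 of 8 (median 0.0024) and a mean level of 9.43 to 9.49 in the cocaine group against 9.41 to 9.49 in the shock group, with Slc17a7 at 11.73 on the cocaine and 11.65 on the shock arrays on average. Inhibitory neuron markers were lower in 6 of 9 (mean level 8.05 to 8.16 on cocaine and 8.13 to 8.28 on shock arrays), microglia markers in 5 of 8 (mean level 5.91 to 5.95 on cocaine and 5.96 to 6.01 on shock arrays) and oligodendrocyte precursor markers in 5 of 6 (in 2 of 6 without cocaine array 6; mean level 6.57 to 6.76 on cocaine and 6.69 to 6.74 on shock arrays). Oligodendrocyte markers were higher in 9 of 9 (in 6 of 9 without cocaine array 7 and 7 of 9 without shock array 6; mean level 8.24 to 8.53 on cocaine and 8.15 to 8.39 on shock arrays), and striatal neuron markers in 6 of 6 (mean level 9.48 to 9.63 on cocaine and 9.32 to 9.41 on shock arrays), with Drd1 at 8.30 on the cocaine and 7.98 on the shock arrays on average. Under the background level were Pvalb, Vcan and C1qc. Their part in the values of the members was not tested.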

How the data were processed

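RNA from GFP-tagged ribosomes of mPFC was measured on 7 arrays. The authors deposited 1 table of log2 expression values for 41345 probe sets; the scale is inferred from their range (1.12 to 13.44). Per the submitters' processing notes, Transcriptome Analysis Console was used; how values were summarized, normalized and filtered is not given in the sources used here. Arrays have no read depth, and their number limits the precision. In 55.9% of the probe sets 2 or more arrays share an identical value.

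Groups come from the labels, array numbers from the titles. The platform annotation gave 23521 probe sets with 1 gene symbol, 1814 with several and 16010 with none listed; for each of 22180 genes the probe set of highest mean was kept. The difference was fitted with limma 3.58.1 in R 4.3.3 (lmFit, eBayes, no covariate, two-sided, Benjamini-Hochberg over all genes), checked on simulated data. Exact permutations used the 35 splits into 4 and 3 arrays. A gene was above background if its mean exceeded 5.46. Alternatives were each array left out, quantile normalization, median centring, dim genes left out, the mean of probe sets, trend and robust moderation, array weights, the title number as a block and the exact test. Named genes were the members, the rest of the family, up to 4 of smallest unadjusted p per list, Npas4, Fos, Arc, the first 3 of each marker list and 3 of most similar pattern per member; others are marked. Members and lists were chosen with earlier results of these data known.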

Additional observations from a re-analysis of the deposited data

Results flagged for a closer look

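Within the 4 cocaine arrays, 11 of 81 measures had 1 array so far from the others that its gap to the nearest, as a share of the range, passed the Dixon 95% limit for 4 samples. By chance about 5% of untied, independent measures pass. The 81 were not independent, since they include genes chosen for a small p or for a pattern like that of a member. Their count therefore cannot be read against that share. Among the members this was Ntrk3, where cocaine array 5 was lowest and the other 3 cocaine arrays held an identical value (gap 1.0). Cocaine array 6 was lowest for Sorcs2 (0.8332), Irs1 (0.895), Irak1 (0.8291), Cx3cr1 (0.9105) and Map2k3os (0.9194) and highest for Slc32a1 (0.9717). Cocaine array 7 was highest for Sorcs3 (1.0) and lowest for Rhoa (0.9155). Cocaine array 5 was lowest for Nxph2 (0.8419) and Smim22 (1.0). Ntrk3, Sorcs3, Irs1, Rhoa, Slc32a1, Smim22 and Map2k3os each had the same value on 2 or more cocaine arrays, so their gaps cannot be read against the 5%.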

How the results depend on the processing

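No member reached an adjusted p under 0.05 under any alternative run (smallest 0.871), and 0 of all genes did (limma; 531 to 915 genes at an unadjusted p under 0.05 except 450 with dim genes left out, and 246 by the exact test). Bdnf changed sign after quantile normalization (0.0080), median centring (0.0052) and with array weights (0.026), and ranged from -0.053 to 0.045 with 1 array left out; Sort1 ranged from -0.016 to 0.046. Ntrk2 (-0.071 to -0.011), Ntrk3 (-0.054 to -0.00035) and Ngfr (-0.20 to -0.043) kept their sign in those 7 fits. The cause was not tested. With the title number as a replicate block, cocaine array 7 carries no weight in the difference, and the differences were -0.013 (Bdnf), -0.049 (Ntrk2), -0.039 (Ntrk3), -0.20 (Ngfr) and 0.0029 (Sort1), with no call changed. The labels do not say whether arrays of one number are paired. Their deviations from the group means correlated at 0.13, 0.064 and 0.16 for numbers 4, 5 and 6. Pairs of different numbers ran from -0.12 to 0.090, so numbers 4 and 6 lay above all of these. Shock array 5 correlated best with cocaine array 7 (0.090). Whether the number marks a shared animal, day or batch was not tested.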
